A study of Mus musculus with 4 samples.

Results

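The HOXA5-FLAG peaks described here are narrow peaks found in both replicates that lay in gene deserts, the long stretches of chromosome without a protein-coding gene. There were 417 of them, which is 25.6% (95% Wilson interval 23.5 to 27.8) of 1630 narrow shared peaks and part of 2175 shared peaks in all. A shared peak joined replicate 1 and replicate 2 peaks that overlapped by at least 1 bp, and it was narrow when no peak in it exceeded 1000 bp. Desert peaks were chosen by these peak calls and by position, with the replicate 1 summit more than 100 kb from every coding gene on chromosomes 1 to 19 or X. The fold enrichments and q-values below come from the same calls, so they describe the peaks and were not tested.

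The tissue was lung of mouse embryos at E15.5 with the genotype Hoxa5FLAG/FLAG, in which the endogenous Hoxa5 gene carries a FLAG epitope on both alleles. A FLAG antibody precipitated the tagged protein from sheared chromatin in 2 replicates. The study has 4 libraries, and the 2 inputs were not analysed here, nor was any untagged control. Whole lung was used, so the cell types that gave each peak are not known, and whether the replicates are separate litters or pools of lungs is not stated in the labels. The titles call the samples wt, whereas the genotype entry names the tagged allele. The replicate number inside the replicate 2 peak names also differs from the one in its title, and the title was followed. The lists hold no read counts, so depth is unknown, and every interval below covers counting error only and treats peaks as independent.

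HOXA5 is a homeodomain transcription factor of the HOXA cluster that is made in the mesenchyme of the developing lung and is needed for normal airway formation. HOX proteins often bind DNA together with PBX and MEIS proteins, and TGATNNAT is a common form of the joint HOX-PBX site. Gene deserts are known to hold enhancers that act over long distances, many of them on genes of development, and they also hold many genes for long noncoding RNAs (lncRNAs). The nearest coding gene on each side is named below only to locate a peak, since these data do not show which gene a peak acts on.

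Sequence was at hand for the desert peaks that overlap the start of an annotated noncoding gene. It is given at peaks of high and of low enrichment. RefSeq promoter windows (GRCm38.p6, the assembly of mm10) run from 250 bases before to 50 bases after a gene's start. They overlapped 6 of the 417 desert peaks, and in 5 of these the replicate 1 summit fell in the window. A window can reach beyond its peak. The shared peak covered 216 of the 300 bases at Gm30604, 255 at 9430093N23Rik and all 300 in the other printed windows. Bases are counted from 1 at the 5′ end of each window, and capitals mark matches to TGATNNAT on either strand. The distance of a match from the replicate 1 summit is taken at base 5 of the match, next to its middle. The first window is that of the best enriched of the 6, the next pair hold a match within 11 bases of the summit, the fourth has no match, and the last belongs to the peak with the lowest enrichment.
Gm31344, chr1:73363656-73363955, plus strand: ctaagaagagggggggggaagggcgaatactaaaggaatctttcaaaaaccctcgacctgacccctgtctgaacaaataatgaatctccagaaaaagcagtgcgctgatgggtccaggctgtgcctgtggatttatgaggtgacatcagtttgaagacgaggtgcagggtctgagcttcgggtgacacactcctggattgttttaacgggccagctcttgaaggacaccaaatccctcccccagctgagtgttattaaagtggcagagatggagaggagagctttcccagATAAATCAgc
Gm30604, chr5:118380869-118381168, minus strand: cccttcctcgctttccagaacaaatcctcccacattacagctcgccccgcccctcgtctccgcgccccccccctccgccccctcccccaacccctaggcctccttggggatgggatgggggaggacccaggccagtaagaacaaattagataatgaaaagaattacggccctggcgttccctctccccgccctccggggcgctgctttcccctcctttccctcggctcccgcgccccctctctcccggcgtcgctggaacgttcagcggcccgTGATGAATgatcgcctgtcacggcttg
Gm40261, chr5:4312803-4313102, plus strand: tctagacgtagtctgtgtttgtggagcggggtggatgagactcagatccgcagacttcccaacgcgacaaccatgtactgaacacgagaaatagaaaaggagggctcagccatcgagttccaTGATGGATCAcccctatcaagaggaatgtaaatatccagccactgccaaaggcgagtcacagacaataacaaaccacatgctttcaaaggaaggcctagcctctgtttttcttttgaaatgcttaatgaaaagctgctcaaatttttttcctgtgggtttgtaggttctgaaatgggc
9430093N23Rik, chr2:169234588-169234887, plus strand: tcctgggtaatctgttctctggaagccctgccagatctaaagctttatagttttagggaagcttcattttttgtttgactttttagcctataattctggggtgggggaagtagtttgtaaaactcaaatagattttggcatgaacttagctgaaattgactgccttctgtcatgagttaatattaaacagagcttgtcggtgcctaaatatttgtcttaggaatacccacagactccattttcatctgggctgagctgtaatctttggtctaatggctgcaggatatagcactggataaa
Gm5636, chrX:47436492-47436791, minus strand: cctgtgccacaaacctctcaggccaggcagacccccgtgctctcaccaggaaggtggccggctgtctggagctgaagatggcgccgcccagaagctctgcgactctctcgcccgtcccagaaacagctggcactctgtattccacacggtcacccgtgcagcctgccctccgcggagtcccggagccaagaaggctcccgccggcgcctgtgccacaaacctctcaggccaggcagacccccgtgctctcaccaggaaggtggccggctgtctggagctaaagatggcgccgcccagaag

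The match lay close to the summit in 2 of the 5 windows. At the lncRNA gene Gm40261, between the coding genes Mterf1b and Fzd1, the capitals are TGATGGAT at bases 123 to 130 and, on the other strand, ATGGATCA at bases 125 to 132. These overlapping matches lay 6 and 4 bases from the summit at base 133. The peak was enriched 7.14-fold in replicate 1 and 3.6-fold in replicate 2. At Gm30604, between Spring1 and Med13l, TGATGAAT at bases 274 to 281 lay 11 bases from the summit at base 289, and the folds were 11.5 and 6.97.

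The best enriched peak of the set had its match far from the summit. The peak at Gm31344 was enriched 26.6-fold in replicate 1 and 16.9-fold in replicate 2. Its match, ATAAATCA at bases 291 to 298, lay 211 bases from the summit at base 84. At 9430093N23Rik, between Zfp64 and Tshz2, the window had no match, the summit was at base 259, and the folds were 5.31 and 4.28. The Gm5636 window on chromosome X also had no match. Its peak had folds of 2.76 and 3.00, and the replicate 2 summit fell outside the window, as it also did at Gm30604 and 9430093N23Rik.

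The Gm5636 window differs from the others in a long repeat, as its first 73 bases recur exactly from base 207 onward. The longest exact repeat in any of the other 5 windows was 12 bases. G and C made up 50.0% of the Gm31344 window, 65.0% of that of Gm30604, 45.7% of that of Gm40261 and 39.3% of that of 9430093N23Rik, against a median of 52.7% over all 32841 promoter windows. TGATNNAT occurred in 2906 of those windows (8.85%), TAAT, the core of many homeodomain sites, in 58.0%, and TTAT in 64.1%. A window ends near some of the summits, so matches beyond its ends are not seen. With 6 windows these values are a description, and a match is not evidence of binding.

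**Figure D1:**
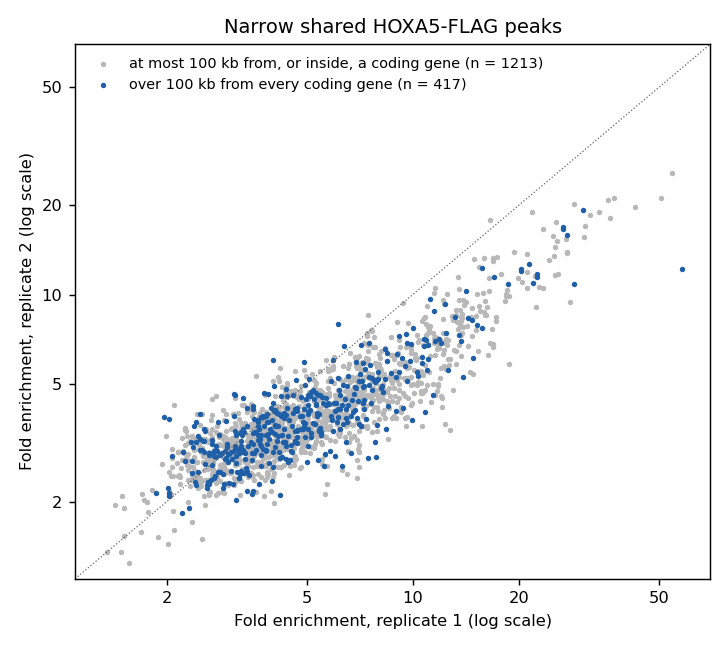
Fold enrichment of the 1630 narrow shared peaks in replicate 1 (horizontal) and replicate 2 (vertical), both on log axes; blue points are the 417 desert peaks, grey points the 1213 other peaks, and the dotted line marks equal folds. Desert peaks overlap the others over most of the range, the lowest folds and the highest replicate 2 folds being grey, and the blue point farthest to the right is the Nox3 to Arid1b peak at 58.1-fold and 12.2-fold.

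Desert peaks spanned nearly the whole range of fold enrichment of narrow shared peaks, with a median near that of the others. In replicate 1 the fold ran from 1.87 to 58.1 with a median of 4.58 (95% interval 4.25 to 4.93). In replicate 2 it ran from 1.83 to 19.3 with a median of 3.7 (3.53 to 3.86). The medians were 4.94 and 3.74 for 523 peaks within 100 kb of a coding gene, and 5.24 and 3.91 for 690 peaks inside one. The desert interval overlapped that of peaks within 100 kb in both lists, and it lay just under the median of peaks inside genes.

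The share of highly enriched peaks in replicate 1 was below that of all narrow shared peaks at the 10-fold limit but not at the 20-fold limit. At least 10-fold enrichment in replicate 1 was found in 46 desert peaks (11%, 8.37 to 14.4). The share of all narrow shared peaks, which include them, was 14.8% (13.1 to 16.6), and these intervals overlap. At least 5-fold enrichment in replicate 2 was found in 86 (20.6%, 17 to 24.8), against 24.4% of all, a value inside the interval. Both limits were met by 44 desert peaks. The share at 20-fold or more in replicate 1 was 2.88% (12 peaks) in deserts and 2.76% over all narrow shared peaks. As the peaks were chosen by these calls, nothing further is read from the shares.

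Both replicates placed desert peaks at nearly the same bases. The 2 summits lay a median of 27 bp apart, and in 336 peaks (80.6%) they lay within 100 bp, against 82.9% of all narrow shared peaks. Peak length had a median of 479 bp in replicate 1 and 408 bp in replicate 2. Across the 417 peaks, fold in replicate 1 and replicate 2 had a Spearman correlation of 0.78, against 0.83 over all 1630. These values share the same genome and the same selection for overlap. The replicate 1 fold was the higher one in 328 desert peaks (78.7%), and the lists were called separately, so the size of the folds is not compared between them.

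Desert position did not go with fewer partners in the other replicate. Of 932 narrow replicate 1 peaks in deserts, 451 (48.4%, 45.2 to 51.6) overlapped a replicate 2 peak. Of 2860 nearer to or inside coding genes, 1293 (45.2%, 43.4 to 47.0) did, and the share over all 3792 was 46.0%. The 2 intervals overlap.

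The best enriched desert peak by mean rank over both lists lay between Kcnn2, which encodes a calcium-activated potassium channel, and Trim36, a ubiquitin ligase gene, on chromosome 18. It was enriched 30.4-fold in replicate 1 and 19.3-fold in replicate 2, with summits 1 bp apart, inside the lncRNA gene A330093E20Rik, 156 kb from Kcnn2. The peak between Tnp1, a sperm chromatin protein gene, and Tns1, which encodes the focal adhesion protein tensin, is the one at the Gm31344 start shown above (chr1:73363425-73364116). The next, chr12:42972731-42973225, had folds of 26.7 and 16.7 and was 1017 kb from Immp2l, the nearer coding gene, inside the lncRNA gene Gm33340. The Tnp1 and Immp2l peaks shared a mean rank of 4.0 with the Nox3 and Lcorl peaks described next. Of these 5 best placed peaks, 4 fell in or within 0.167 kb of a noncoding gene, and the Lcorl peak lay 69.3 kb from one. Over all 417 desert peaks, 67 summits (16.1%) lay in a noncoding gene and 7 more within 1 kb of one. The other peaks among the best 12 lay in none, at 4.88 to 145 kb from the nearest.

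At 58.1, the peak at chr17:4626163-4626596 had the highest replicate 1 fold of any narrow shared peak, and replicate 2 gave 12.2 there. This peak lay inside the lncRNA gene Gm34259, 368 kb from Arid1b, a subunit gene of the BAF chromatin remodelling complex, and 930 kb from Nox3, an NADPH oxidase gene of the inner ear. Its rank differed most among the 5 best placed peaks, being 1 in replicate 1 and 7 in replicate 2. The same desert held a second high peak at chr17:4173878-4174464, with folds of 22.5 and 11.5, and a lower one of 3.53 and 4.20 lying 25.7 kb from it.

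The other peaks among the best 12 had no single kind of neighbour. Slit2, which encodes a ligand of ROBO receptors in cell guidance, lay 1703 kb from a peak of 27.4- and 15.9-fold (chr5:46278120-46278718), with Lcorl 421 kb away on the other side. A peak 149 kb from Gria1, a glutamate receptor gene, had folds of 21.4 and 12.7 (chr11:56862577-56863201). A peak 841 kb from the transcription factor gene Klf4 and 367 kb from Actl7b, a testis actin-like gene, had 28.7 and 10.8 (chr4:56372674-56373375). Strong peaks thus lay at very different distances from the nearest coding gene, 421, 149 and 367 kb in these 3.

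The remaining 4 of the 12 had folds between 15.7 and 22.5 in replicate 1. They lay between Setbp1 and Gm36718 (chr18:79755441-79756052, 22.5 and 11.8), and between Klhl1 and Dach1 (chr14:97006238-97006805, 20.3 and 12.2). One lay 109 kb from Sall1, a zinc finger gene of kidney and limb development, on the side towards Tox3 (chr8:89152667-89153476, 20.3 and 12). The last, between Tmem167 and Atp6ap1l (chr13:90722553-90723169), had 15.7 and 12.3. In every one of the 12, the 2 lists gave a fold above 10.

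Distance to the nearest coding gene ran from 100 to 1755 kb, with a median of 247 kb and quartiles of 158 and 404 kb. A coding gene flanked 411 of the desert peaks on both sides, and the other 6 lay between the outermost coding gene and a chromosome end. The gap between the flanking genes had a median of 919 kb and ran from 218 to 4542 kb. More than 500 kb from any coding gene lay 73 peaks, and more than 1000 kb from any lay 18. The peak farthest out (chr3:43557347-43558253) was 1755 kb from D3Ertd751e and 1821 kb from the protocadherin gene Pcdh10, with folds of 3.29 and 4.46.

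The next 4 farthest were 1553, 1550, 1501 and 1473 kb from a coding gene. One of them reached a high fold, the peak at chr2:46670005-46670479 between Zeb2 and Acvr2a, with 11.4 in replicate 1 and 4.59 in replicate 2. The second peak in the Pcdh10 desert had 5.76 and 4.32. The peaks between Dsel and Cntnap5a and between Hace1 and Grik2 had 2.39 and 3.6, and 3.66 and 3.53. Fold changed little with distance over all desert peaks. Its replicate 1 median was 4.64 at 100 to 200 kb, 4.51 at 200 to 500 kb, 4.69 at 500 to 1000 kb and 4.33 beyond 1000 kb, and in replicate 2 it was 3.82, 3.62, 3.62 and 3.57.

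The 100 kb limit is arbitrary, and folds varied on both sides of it. Just beyond it lay peaks 100338 bp from Slc27a6 (folds 4.02 and 2.95), 100389 bp from Gm4791 (3.49 and 2.12) and 100612 bp from Oma1 (2.88 and 2.23). Just within it, and so not among the desert peaks, lay peaks 99891 bp from Tcf21 (30.9 and 17), 99183 bp from Plxnc1 (3.75 and 2.66) and 99083 bp from Snx13 (5.30 and 4.55). Tcf21, a transcription factor gene of lung mesenchyme, also had a desert peak at 108 kb on the same side (chr10:22928145-22928558), with folds of 4.62 and 3.21.

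**Figure D2:**
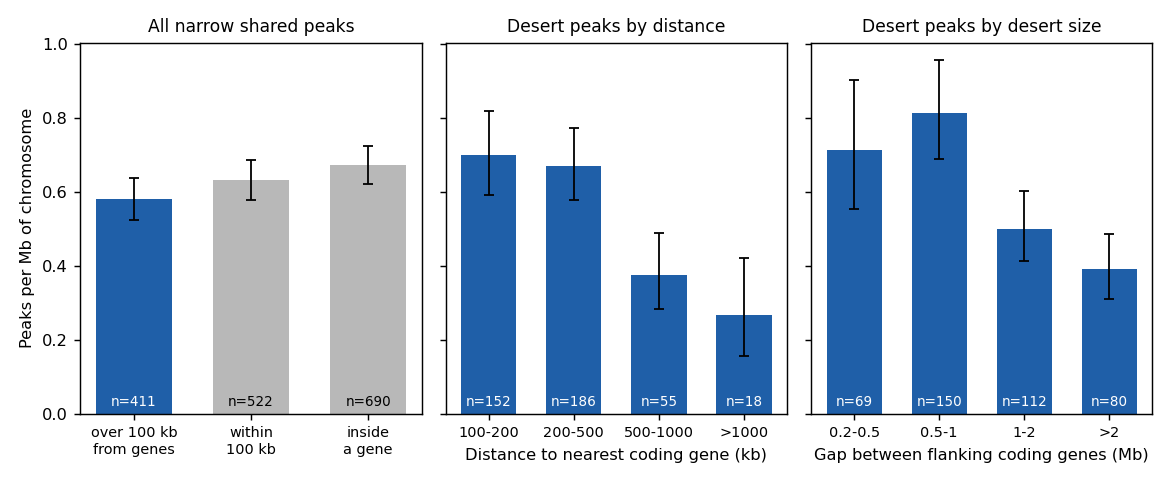
Narrow shared peaks per Mb of chromosome (bars) with 95% Poisson intervals (lines) and peak counts at the base of each bar, for the 3 kinds of position (left), and for desert peaks by distance to the nearest coding gene (middle) and by desert size (right). The middle panel falls from about 0.7 peaks per Mb at 100 to 200 kb to 0.266 beyond 1000 kb. The right panel is highest in gaps of 0.5 to 1 Mb (0.814) and lowest in deserts over 2 Mb (0.391).

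Per base, the density of desert peaks was a little below that of peaks near or inside genes, with overlapping intervals. The outer parts of deserts differed from the deep parts. Deserts held 0.579 peaks per Mb (95% Poisson interval 0.524 to 0.638) over 710 Mb, against 0.631 (0.578 to 0.687) within 100 kb of a coding gene and 0.671 (0.622 to 0.723) inside coding genes. Only the 411 peaks with a coding gene on both sides entered this count. They were 25.3% of the peaks so placed on 27.7% of the bases. The bases include assembly gaps, where no peak can lie, and the part of such gaps in the difference was not tested.

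Within deserts, density fell with distance from coding genes. It was 0.698 per Mb (0.591 to 0.818) at 100 to 200 kb and 0.670 (0.577 to 0.773) at 200 to 500 kb, and these 2 intervals overlap. It was 0.375 (0.283 to 0.489) at 500 to 1000 kb and 0.266 (0.157 to 0.420) beyond 1000 kb, below both nearer ranges. By desert size it was 0.712 (0.554 to 0.901) in gaps of 0.2 to 0.5 Mb and 0.814 (0.689 to 0.955) in gaps of 0.5 to 1 Mb. It was 0.5 (0.412 to 0.601) in gaps of 1 to 2 Mb and 0.391 (0.310 to 0.487) in larger ones. Larger deserts also hold more of the far bases, so size and distance cannot be told apart in these values.

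Chromosome X had the fewest desert peaks per base, 10 peaks or 0.180 per Mb (0.0863 to 0.331), against 0.613 (0.554 to 0.676) on chromosomes 1 to 19. The low value was not limited to deserts. Narrow shared peaks on X reached 0.180 per Mb (0.0931 to 0.315) within 100 kb of coding genes and 0.154 (0.0619 to 0.317) inside them, against 0.670 and 0.695 on chromosomes 1 to 19. The sex of the embryos is not in the labels, and the part of X copy number in this was not tested. Among chromosomes 1 to 19 the highest value was 0.845 (0.598 to 1.16) on chromosome 4 and the lowest 0.385 (0.105 to 0.985) on chromosome 19, with overlapping intervals.

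A noncoding gene held the summit of 67 desert peaks (16.1%, 12.9 to 19.9), on 12.1% of desert bases. Long noncoding RNA genes held 63 of them (15.1%, 12 to 18.9), on 10.2% of desert bases, and this interval lay above the share of bases. Pseudogenes held 3 (0.719%, 0.245 to 2.09) on 1.00%. The last one was in Vis1, annotated as another kind of RNA, 129 kb from Zeb2. Strand and exons were not used here, so summits in exons and introns of these genes were not told apart.

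Enrichment was similar inside and outside noncoding genes. The median fold was 4.69 in replicate 1 and 3.92 in replicate 2 for the 67 peaks inside, and 4.49 and 3.66 for the 350 outside. At least 10-fold enrichment in replicate 1 was found in 10 of the 67 and 36 of the 350. The summits outside lay a median of 42.4 kb from the nearest noncoding gene, 54 of them within 10 kb. An end of a noncoding gene lay within 1 kb of 22 summits (5.28% of 417). The share of desert bases that near to a noncoding gene was not computed, so these counts do not show whether summits lay unusually near.

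The lncRNA genes with the best ranked peaks were mostly unnamed models. After A330093E20Rik, Gm33340 and Gm34259 came A930011G23Rik, which spans 432 kb between Rasgef1b and Vamp9 and held 2 desert peaks, at 21.9- and 11-fold (chr5:99388404-99388934) and at 3.71- and 3.08-fold. Gm39809 held a peak of 14.7 and 8.23, 320 kb from Acvr2a, an activin receptor gene (chr2:48493835-48494739). Gm35240, 122 kb from Fut8, a fucosyltransferase gene, held one of 13.2 and 8.38 (chr12:77597983-77598567). Gm33861, between Dyrk2 and Cand1, held one of 11.1 and 6.76 whose summits coincided in both lists (chr10:119069367-119069920).

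Both other lncRNA genes with 2 desert peaks lay in deserts described below. Gm29185, between Tnp1 and Tns1, held peaks of 7.23 and 9.96 in replicate 1, and Gm30624, between Phlda1 and Krr1, held peaks of 8.94 and 10.7. The tenth noncoding gene by rank, Gm29687, lay 1033 kb from Id2, which encodes an inhibitor of helix-loop-helix factors, and its peak had folds of 9.34 and 6.13.

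One desert peak lay next to a microRNA cluster. Its position is chr16:77648141-77648528, between Usp25 and Cxadr, 532 kb from the nearer coding gene. The folds were 5.49 in replicate 1 and 3.44 in replicate 2. The summit was 1.96 kb from Mir125b-2, 48.6 kb from Mirlet7c-1 and 49.3 kb from Mir99a. The mature microRNAs, from RefSeq with the seed (bases 2 to 8) in capitals, show that the 3 neighbours have different seeds.
mmu-miR-125b-5p: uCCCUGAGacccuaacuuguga
mmu-let-7c-5p: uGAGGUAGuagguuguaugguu
mmu-miR-99a-5p: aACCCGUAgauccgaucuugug

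**Figure D3:**
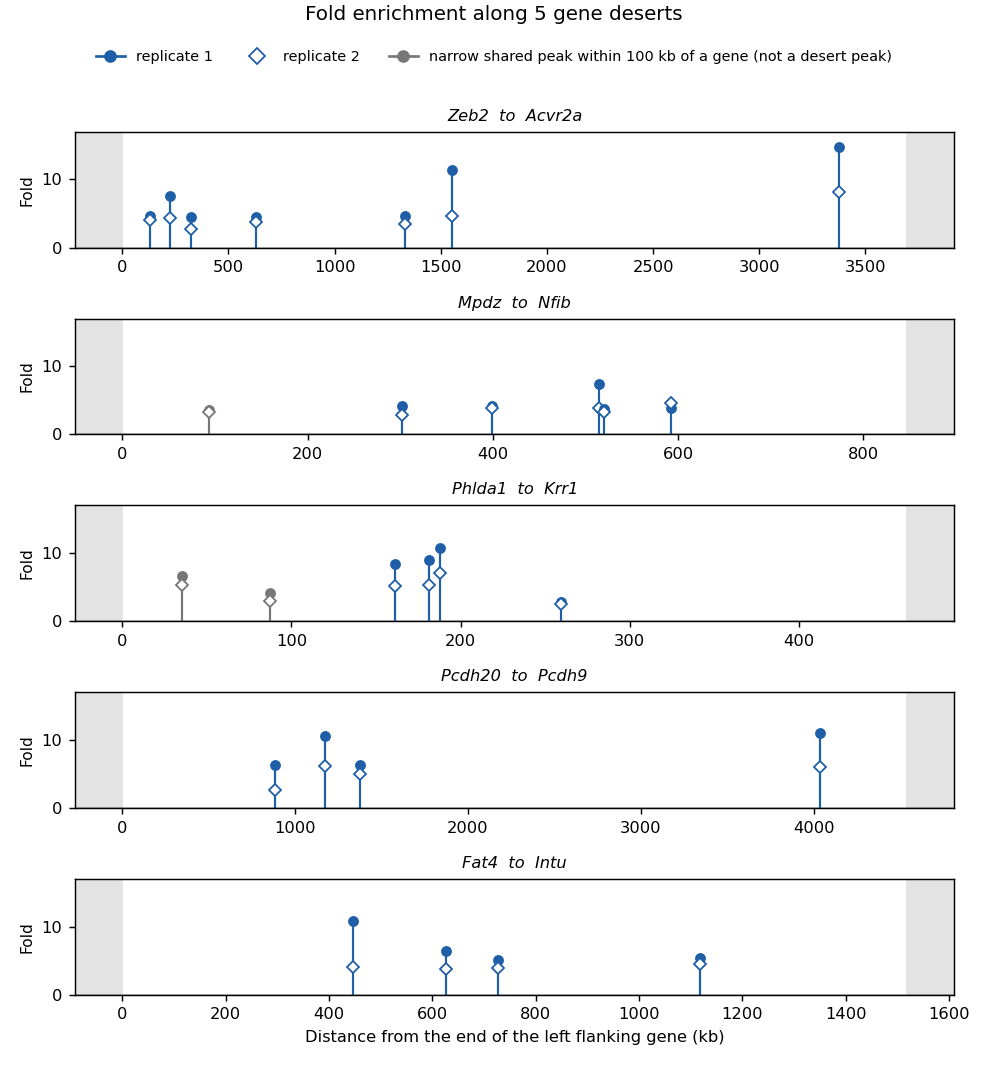
Fold enrichment (vertical) along 5 deserts with many desert peaks, those with 7 and 5 and 3 of the 8 with 4 (the 3 whose peaks had the best median rank of fold), by distance in kb from the end of the left flanking gene (horizontal); filled circles are replicate 1, open diamonds replicate 2, grey symbols narrow shared peaks within 100 kb of a coding gene, and shaded ends the flanking genes. The Phlda1 to Krr1 peaks sit within 98.3 kb of each other, while the 7 between Zeb2 and Acvr2a spread over 3248 kb.

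Desert peaks were spread over 288 of 1519 deserts (19%), and 545 different coding genes flanked them. A single peak was found in 210 deserts, 2 in 47, 3 in 21 and 4 in 8. The largest counts were 5 and 7, in 1 desert each. The 78 deserts with 2 or more held 201 peaks (48.2% of 417). The share of deserts with a peak was 7.05% for gaps of 0.2 to 0.5 Mb and 55.3% for gaps over 2 Mb, as larger deserts have more bases.

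Close neighbours were about as common among desert peaks as among narrow shared peaks in general. Another desert peak lay within 100 kb of 91 (21.8%, 18.1 to 26.0), within 50 kb of 54 and within 10 kb of 14. Counting any narrow shared peak as a neighbour within 100 kb gave 100 (24.0%), against 23.1% of all narrow shared peaks. Joined at steps of at most 100 kb, the peaks formed 326 singles, 36 pairs, 5 groups of 3 and 1 group of 4.

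The desert between Zeb2, a zinc finger repressor gene of neural crest and mesenchymal cells, and Acvr2a held 7 peaks in 3697 kb, the most of any desert. Their folds ran from 4.45 to 14.7 in replicate 1 and from 2.77 to 8.23 in replicate 2. Of the 7, 3 lay 129, 223 and 322 kb from Zeb2 and 3 between 631 and 1553 kb, while the highest, in Gm39809, lay at 3377 kb. Every narrow shared peak in this gap was a desert peak.

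The desert between Mpdz, a scaffold protein gene, and Nfib, a nuclear factor I gene needed for lung maturation, held 5 peaks in 847 kb, or 7.72 per Mb of desert bases. They lay 255 to 545 kb from Nfib, with folds of 3.71 to 7.35 in replicate 1 and 2.81 to 4.63 in replicate 2. Its paralogue Nfia was flanked by desert peaks at 220, 217 and 103 kb. The pair at 220 and 217 kb had folds of 6.23 and 10.6 in replicate 1 and 4.12 and 5.88 in replicate 2. That pair, 2.55 kb apart, was the closest of any 2 desert peaks.

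Phlda1, a pleckstrin homology domain gene, and Krr1, a ribosome assembly gene, flanked the densest of the 5 mapped deserts, with 4 peaks in 464 kb, or 15.1 per Mb of desert bases. Replicate 1 folds were 8.33, 8.94, 10.7 and 2.84, and replicate 2 folds 5.21, 5.26, 7.06 and 2.53, in order from Phlda1. The lowest, 259 kb from Phlda1, had its summit in the pseudogene Gm46193. A further 2 narrow shared peaks, nearer to Phlda1 than 100 kb, are not counted among the 4.

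The other deserts with many peaks were wide. Between Pcdh20 and Pcdh9, protocadherin genes that bound the widest desert of the annotation (4542 kb), 4 peaks had folds of 6.30 to 11.1 in replicate 1 and 2.64 to 6.17 in replicate 2, and none was within 202 kb of another. Between Fat4, a giant cadherin gene of tissue polarity, and Intu, a gene of cilium assembly, 4 peaks had folds of 5.05 to 10.9 and 3.84 to 4.59. The remaining 5 deserts with 4 peaks, not on the map, were those between Lcorl and Slit2, Klf4 and Actl7b, Celf2 and Gata3, Trim52 and Slitrk1, and Mdga2 and Rps29. Of the 5 widest deserts, those between Celf4 and Pik3c3, Cntnap5b and Cdh20, and Tenm3 and Aga held no desert peak, and the one between Olfm4 and Pcdh17 held 1.

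Among the tight groups, the 3 peaks between Efcab1 and Ube2v2 lay within 21.4 kb, with folds of 8.99, 15.2 and 3.83 in replicate 1 and 6.29, 7.92 and 3.89 in replicate 2. The 3 between Tnp1 and Tns1 lay within 104 kb and rose towards the Gm31344 start, with 7.23, 9.96 and 26.6 in replicate 1. In replicate 2 they had 4.87, 3.77 and 16.9, so only the last stood apart in both. The 3 peaks between Exoc2 and Foxq1, a forkhead gene, lay within 76.8 kb and had low to moderate folds of 3.77 to 7.46 and 2.81 to 3.52.

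**Figure D4:**
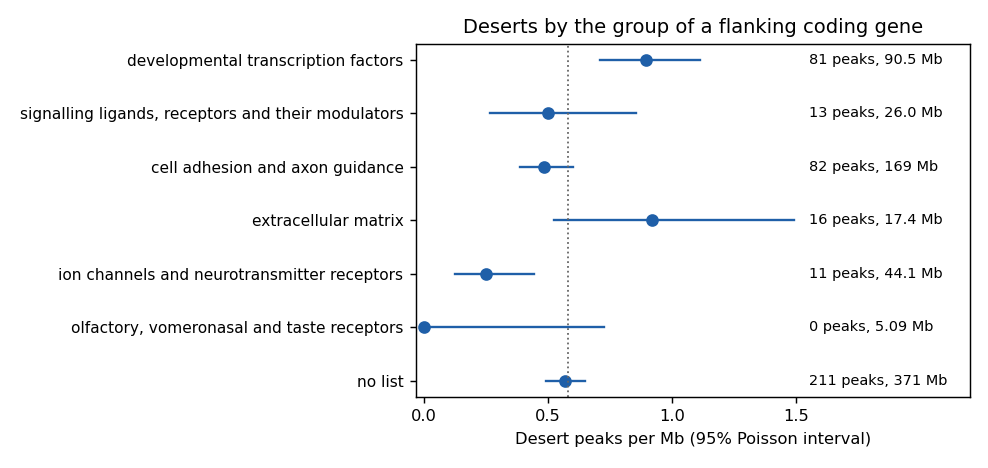
Desert peaks per Mb (points) with 95% Poisson intervals (lines) for deserts with at least 1 flanking coding gene in each of 6 gene groups, or in none; the dotted line is the value over all deserts, 0.579. Deserts at developmental transcription factor genes lie to the right of that line (0.895) and those at channel and neurotransmitter receptor genes to its left (0.250). The values are not split by desert size.

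Flanking genes were sorted into 6 groups by symbol. Developmental transcription factor genes flanked 81 of the 411 peaks with a gene on both sides (19.7%, 16.2 to 23.8), on deserts that made up 12.8% of desert bases. Density there was 0.895 per Mb (0.711 to 1.11), against 0.579 in all deserts. Of 160 such genes next to a desert, 44 had a desert peak on at least 1 side, and the listed gene was the nearer flank in 45 of the 81. The count of genes was 51 of 105 in the adhesion and guidance group and 13 of 34 in the matrix group. It was 13 of 64 for signalling, 11 of 78 for channels and neurotransmitter receptors, and 0 of 28 for olfactory, vomeronasal and taste receptors. These counts take no account of desert size. The same share over all coding genes next to a desert is not given here, so the counts are not read as high or low. The median fold of the 81 peaks was 5.06 in replicate 1 and 3.90 in replicate 2, against 4.58 and 3.7 over all desert peaks.

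Desert size moved with this result, so the same values are given within size ranges. In gaps over 2 Mb, density was 1.11 per Mb (0.634 to 1.80) next to a listed transcription factor gene and 0.337 (0.259 to 0.430) elsewhere. In gaps of 1 to 2 Mb it was 0.744 (0.477 to 1.11) and 0.459 (0.368 to 0.565), and in gaps of 0.5 to 1 Mb 1.03 (0.723 to 1.43) and 0.763 (0.630 to 0.917). In gaps under 0.5 Mb the order was the other way, 0.558 (0.181 to 1.3) from 5 peaks and 0.728 (0.560 to 0.929). The intervals were apart in the gaps over 2 Mb alone, where 6 deserts next to a listed gene held 16 peaks, 7 of them between Zeb2 and Acvr2a and 4 between Celf2 and Gata3. These 4 were nearer to Celf2 (261 to 1020 kb) than to the listed gene Gata3 (1441 to 2200 kb). The highest of the 7 lay 3377 kb from Zeb2 and 320 kb from Acvr2a, and the others were nearer to Zeb2.

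The best ranked peaks of this group after those at Klf4 and Sall1 lay 891 kb from Klf6, which encodes a zinc finger factor (chr13:4970476-4971200, 14.1 and 10.3), and at 3377 kb from Zeb2. Genes with known roles in lung mesenchyme or branching were then looked up, a choice made after the values were seen. Foxf1, a forkhead gene of lung mesenchyme and vessels, lay 208 kb from a peak of 15.7- and 7.69-fold (chr8:120875895-120876599). Tbx3, a T-box gene of lung mesenchyme, had peaks at 192 kb (9.13 and 5.49) and 710 kb (6.21 and 4.57). Osr1, a gene of lung bud specification, had peaks at 321 kb (8.46 and 6.38) and 266 kb (4.53 and 3.61). As these peaks were chosen with their folds known, their standing against the replicate 1 desert median of 4.58 is not a result. Other lung genes had peaks on both sides of that median. The Nfib peaks ran from 3.71 to 7.35 in replicate 1, the Tcf21 desert peak had 4.62 and the Sox9 peak 2.43.

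Meis1, whose protein is a TALE partner of HOX proteins, was flanked by 4 desert peaks. The 3 on the Etaa1 side, 602, 298 and 130 kb from Meis1, had folds of 4.93, 5.27 and 9.39 in replicate 1 and 5.91, 3.67 and 4.16 in replicate 2. The fourth, 778 kb away towards Spred2, had 4.35 and 3.18. Peaks near other transcription factor genes covered the range from low to high. Maf had one of 13.5 and 7.33 at 191 kb, Myc one of 13.7 and 6.95 at 996 kb, Hes1 one of 8.43 and 5.95 at 119 kb, and Sox9, a factor of the distal epithelium and cartilage, one of 2.43 and 3.17 at 926 kb.

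Signalling genes flanked 13 of the 411 peaks (3.16%, 1.86 to 5.34) on deserts of 3.66% of the bases, with 0.501 per Mb (0.267 to 0.856). Each of 13 such genes, of 64 next to a desert, had a single peak. The best ranked was 930 kb from Jag1, a Notch ligand gene (chr2:138046058-138046673, 11.9 and 7.06). Dkk2, a Wnt antagonist gene, had one at 120 kb inside the lncRNA gene Gm29865 (7.94 and 5.20). Nrg3, a neuregulin gene, had one at 1093 kb (5.06 and 5.21), and Ptch1, the hedgehog receptor gene, one at 105 kb in 1700024I08Rik (6.05 and 4.29).

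Growth factor genes of lung branching were among the 13. Bmp4 had a peak at 101 kb, in the lncRNA gene Gm34756, with folds of 7.01 and 3.65. Fgf9, a growth factor gene of the mesothelium and epithelium, had one at 212 kb with 7.85 and 2.83, and the FGF receptor gene Fgfr2 one at 198 kb with 3.27 and 3.36. The Fgf9 fold was high in replicate 1 and below the desert median in replicate 2.

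Cell adhesion and axon guidance genes flanked 82 peaks (20.0%, 16.4 to 24.1) on 23.8% of desert bases, with 0.485 per Mb (0.386 to 0.602). Most of those bases are in wide deserts, 111 of 169 Mb in gaps over 2 Mb, where density was 0.405 (0.295 to 0.542) next to listed genes and 0.375 (0.261 to 0.521) elsewhere. The best ranked after Slit2 were 758 kb from Cdh2, the N-cadherin gene (chr18:17566794-17567618, 17 and 11.5), 528 kb from the adhesion receptor gene Adgrl4 (chr3:150910025-150910576, 18.7 and 10.8), and 508 kb from Pcdh9 (chr14:92505785-92506254, 11.1 and 6.04). The median fold of the 82 was 4.24 in replicate 1 and 3.50 in replicate 2.

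Extracellular matrix genes flanked 16 peaks (3.89%, 2.41 to 6.23) on 2.45% of desert bases, with 0.920 per Mb (0.526 to 1.49), an interval that includes the value over all deserts. Fn1, which encodes fibronectin, lay 257 kb from a peak of 14.3- and 8.30-fold (chr1:71909622-71910243). Adamts5, a gene of proteoglycan cleavage, had 3, the best 2 at 683 and 744 kb with 8.36 and 7.18 in replicate 1 and 6.53 and 5.12 in replicate 2. Thbs2, a thrombospondin gene, had one at 125 kb (8.19 and 4.93). Their median fold was 5.58 and 3.95.

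Ion channel and neurotransmitter receptor genes flanked 11 peaks (2.68%, 1.5 to 4.73) on 6.21% of desert bases, with 0.250 per Mb (0.125 to 0.446), below the value over all deserts. This group was not split by desert size, so the part of size in its low value was not tested. Kcnn2 and Gria1, next to top ranked peaks, belong to this group, and the others ranked lower, with 6.50 and 3.7 at Grm3 and 4.10 and 4.03 at Adra1b. Olfactory, vomeronasal and taste receptor genes flanked none of the 411 (upper limit 0.926%) on 0.717% of desert bases, so no lack of peaks was detectable there. The single flank of 2 of the 6 outermost peaks was such a gene, Olfr161 with folds of 3.07 and 2.80 and Vmn1r2 with 2.68 and 2.89. No listed gene flanked 211 peaks (51.3%), on 52.3% of desert bases.

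Peaks at the ends of chromosomes mostly had low folds. The 6 with a coding gene on 1 side had replicate 1 folds of 1.87 to 4.03 and replicate 2 folds of 1.83 to 4.91. The highest in both lists was the peak 165 kb from Gdi2, with 4.03 and 4.91, and the latter was above the replicate 2 desert median. Both peaks beyond Asmt on chromosome X had low values, with replicate 2 folds of 2.15 and 1.91 and replicate 1 −log10 q of 3.99 and 6.18. The peak 124 kb beyond Fgf14 (chr14:124801619-124802110) joined folds of 2.21 and 1.83 to −log10 q of 457 and 300, against desert medians of 18.3 and 10.7. It was the single desert peak under 3-fold in replicate 1 with a −log10 q over 20 there. Folds under 3 in both lists were found in 46 desert peaks (11%), against 10.8% of all narrow shared peaks.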

How the data were processed

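Chromatin immunoprecipitates of HOXA5-FLAG from E15.5 lung were read from 1 deposited peak list per replicate (4289 and 2832 peaks). The submitters' processing notes name the mm10 build, the peak caller MACS3 3.0.1, the aligner Bowtie2 2.5.2, the read tools FastQC 0.12.1 and Trim Galore, and also deepTools, bedtools 2.31.0 and SAMtools 1.18. Peak caller settings, its control and filters are not given in the sources used. Each peak's fold enrichment (a ratio) and −log10 q-value at the summit are the authors' deposited values, used to describe, rank and filter peaks within a list. No deposited −log10 q was below 2.01 (replicate 1) or 2.02 (replicate 2).

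Overlapping peaks were merged with Python 3.11.15, scripts were tested on simulated data, and intervals are 95% Wilson, exact Poisson (scipy 1.17.1) or order-statistic. Genes came from a RefSeq table of GRCm38.p6. Of 49554 genes on chromosomes 1 to 19 and X, 340 starting below 3 Mb were left out, as those positions appear to be on scaffolds, which left 21523 coding and 27691 other genes. The planned sequence features around every summit were not computed, since sequence was used only where a promoter window overlapped a peak, and the windows' strand was checked on 1911 pairs of opposite windows that overlap. Desert bases are those over 100 kb from any coding gene.

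No test was run, because the peaks are chosen by the calls and there is 1 group of 2 lists. Peaks named in full are the 12 with the best mean rank of fold, those in 5 deserts with the most peaks (ties, 8 deserts with 4 peaks, broken by the median rank of fold of their peaks), the 5 farthest out, 3 on each side of the 100 kb limit, up to 4 for each of 6 gene groups, and up to 10 noncoding genes. Others were named after their values were seen. The members and gene groups were chosen with earlier results of these data known. The groups were matched by symbol patterns, and the transcription factor group also holds Basp1, which is not a classical transcription factor, with 1 peak. Alternatives covered overlap, threshold, length, distance, gene set and each replicate alone.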

Additional observations from a re-analysis of the deposited data

Results flagged for a closer look

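Signal also appeared in peaks outside the narrow ones described. Gene deserts held 163 shared peaks with a member over 1000 bp. Their median fold was 3.32 in replicate 1 and 3.39 in replicate 2, 0 of them reached 10-fold in replicate 1, and the highest fold was 7.58, between Adamts9 and Magi1. Of the 417 narrow desert peaks, 5 lay within 10 kb of such a long peak.

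Chromosome Y and scaffolds held 13 narrow shared peaks, 4 on Y and 9 on scaffolds, which the placement relative to coding genes did not use. Their median fold was 2.54 in replicate 1 and 2.59 in replicate 2, and the highest in replicate 1 was 6.21.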

How the results depend on the processing

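Under 11 alternatives, 53 of 75 recomputed values stayed within their interval, or within 1.5 times for the count, and 22 moved. The density and the share of peaks next to a listed transcription factor gene were added to the alternatives after seeing the data. Each replicate taken alone, without the other, gave 594 to 932 desert peaks, 0.821 to 1.3 per Mb, and 26.6% to 39.9% with another within 100 kb. Its median fold was 3.85 without replicate 2 and 3.35 without replicate 1. A length of at most 500 bp left 211 peaks, 0.294 per Mb, with a replicate 1 median of 4.99, 21.8% in a noncoding gene, 17.1% with another within 100 kb and 24.4% next to a listed transcription factor gene. A length of up to 2000 bp gave 0.751 per Mb and a replicate 1 median of 4.06. Summits within 100 bp gave medians of 5.11 and 3.90 and 0.468 per Mb, and a −log10 q of at least 5 gave 5.14 and 3.98 and 0.475 per Mb. A distance limit of 200 kb left 260 peaks. Fewer or more peaks enter by construction in each case. No paired analysis was possible because the values describe 1 group of 2 lists, with no second group to pair it with. Without read counts, depth is unknown, and a peak missing from 1 list may be one that its depth could not show.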
